A study of Mus musculus with 6 samples.

Results

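Classical cadherins and non-clustered protocadherins were followed in primary cultures of mouse cortical neurons, taken from C57BL/6 embryos on embryonic day 18. The set holds each gene named Cdh or Pcdh with a number, the Celsr genes, the Fat genes and the Dachsous genes, which came to 43 of the 20040 entries of the expression table. Dchs2 is not analysed here. The clustered protocadherins carry letters in their names and lie outside the set. Messenger RNA was sequenced from KDM6B KO and wild-type (WT) cells of this strain, 3 libraries each, and both groups received the same plating and maintenance media. The labels name the KO by gene only, so the deleted part, the age of the cultures and the number of embryos per library are not stated.

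Cadherins are surface proteins whose extracellular repeats bind calcium and join neighbouring cells, often like to like. Type I and type II classical cadherins are tied to actin through catenins, the delta protocadherins signal through other cytoplasmic partners, and the very large Celsr, Fat and Dachsous cadherins orient cells in a tissue. In the developing cortex members of the family mark layers, areas and cell types and take part in migration, axon growth and the matching of synaptic partners. Kdm6b encodes a demethylase that erases a repressive mark, the trimethylation of histone H3 at lysine 27. The comparison addresses how the transcripts of these cultures differ between KO and WT.

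Expression is given in TPM, a share of transcripts corrected for gene length that sums to 1000000 per library, so TPM of different genes can be set side by side. The whole counts behind the values came to 21522425, 23503789 and 19761816 in KO replicates 1, 2 and 3 and to 21519806, 20728407 and 22679142 in WT replicates 1, 2 and 3. Kdm6b had 11.2, 11.1 and 12.0 TPM in KO, against 30.9, 30.3 and 30.7 TPM in WT, which left 37.3% of the WT level (log2 fold change -1.39 ± 0.05 SE, limma adjusted p = 1.1e-05). Nothing in the labels ties the replicates to separate animals or litters, so the spread behind each p-value is that of the libraries and may be technical. Sex-linked transcripts set the groups apart too. From the Y chromosome, Eif2s3y had 0.472, 0 and 0 TPM in KO, against 43.8, 43.7 and 43.5 TPM in WT, and Xist averaged 232 TPM in KO and 74.0 TPM in WT. Xist had 70.8, 73.6 and 77.7 TPM in WT replicates 1, 2 and 3, so each WT library held Y-linked RNA and Xist at like levels. Y-linked RNA was nearly absent in KO. Whether the libraries of a group came from a shared pool of cells was not tested. Sex mix and genotype cannot be told apart in any value given here.

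The KO cultures held a different mixture of cadherin transcripts within a like total. The summed level of the 43 genes was 1858 ± 23.8 TPM in KO and 1863 ± 18.4 TPM in WT (SD, n = 3 each), a difference smaller than the spread between libraries. Within that total, 10 genes rose and 5 fell at a limma adjusted p below 0.05. The rises were those of Cdh8, Pcdh19, Cdh18, Cdh20, Fat3, Pcdh7, Pcdh11x, Cdh2, Pcdh17 and Dchs1. The falls were those of Cdh9, Cdh13, Cdh22, Cdh11 and Pcdh1. A rise of 1.71-fold in Cdh8 and a fall to 71.1% of WT in Cdh9 were the ends of the range among them, and Cdh8 was the only one of the 15 to change by at least 1.5-fold.

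The 15 genes are 41.7% of the 36 that were tested, and 10.9% of all 14983 tested genes were called. Rises made up 27.8% of the tested set and 4.15% of all tested genes, and falls made up 13.9% of the set and 6.74% of all tested genes. Called genes need reads, and 26 of the set had a mean of at least 10 TPM. At that level 57.7% of the set was called, against 13.5% of all genes. That level does not match reads, since TPM is divided by gene length and long genes hold more counts at the same TPM. Fat4 at a mean of 29.8 TPM held 3114 to 3854 counts per library, and the fibroblast gene Dcn at 29.6 TPM held 380 to 530. The share called among genes of like counts was not computed. In 29 of the 36, or 80.6%, the KO libraries and the WT libraries did not overlap, which 31.7% of all tested genes also showed. The changes were mostly small: the median absolute log2 fold change was 0.19 in the tested set, 0.35 in the 15 called genes and 0.08 over all tested genes. The median signed log2 fold change was 0.14 in the set and -0.02 over all genes. Over all genes the split of calls depended on scaling, with 622 higher and 1010 lower as deposited, 867 and 767 after median centring, and 788 and 813 after quantile normalization. In the set it was 11 higher and 4 lower after median centring and 12 higher and 4 lower after quantile normalization. Leaving out 1 library at a time gave 7 to 9 rises and 3 to 5 falls, and the falls numbered 3 without KO replicate 1, KO replicate 2, WT replicate 1 or WT replicate 3. A limma voom test on the whole counts recovered from the TPM called 24 of the set and 17.5% of all genes.

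**Figure D1:**
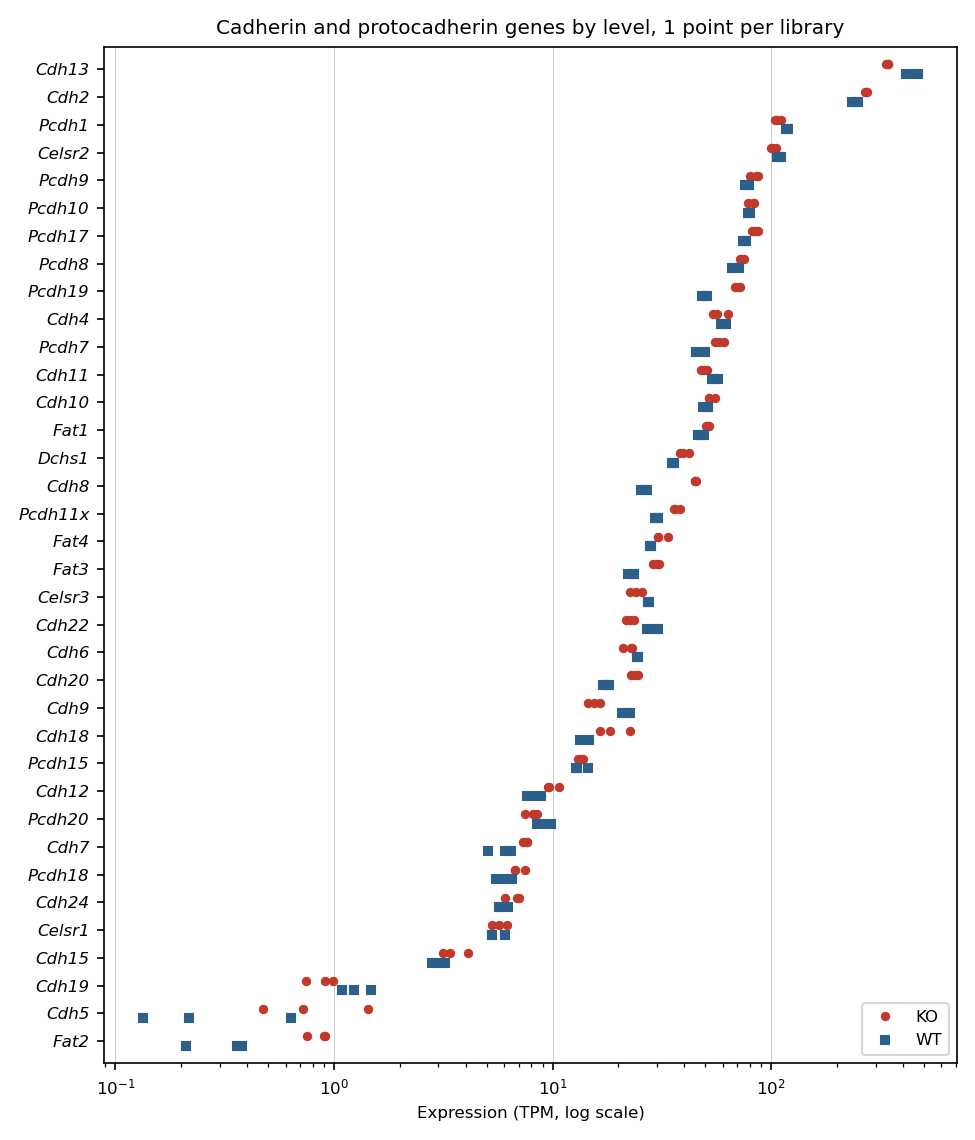
Expression of the 36 tested cadherin and protocadherin genes, ordered by mean level, with TPM on a log axis and 1 point per library (KO circles above WT squares in each row). Levels run from Cdh13, at 339.7 TPM in KO and 447 TPM in WT, down to Fat2, at 0.855 TPM in KO and 0.316 TPM in WT.

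The other 7 members, Cdh1, Cdh3, Cdh16, Cdh17, Cdh23, Cdh26 and Pcdh12, had a mean under 0.5 TPM over the 6 libraries and were not tested. Cdh1 and Cdh3 encode the E-cadherin and P-cadherin of epithelia, and Pcdh12 is known from endothelium. Cdh1 held 4 to 11 counts per KO library and 1 to 8 per WT library. Cdh16, a kidney cadherin, had at most 1 count in any library, and Cdh3, Cdh17 and Pcdh12 had at most 12. The most abundant of the 7 was Cdh23, a cadherin of the hair cell tip link, with 0.632, 0.517 and 0.591 TPM in the KO libraries, against 0.324, 0.373 and 0.296 TPM in the WT libraries. Its KO libraries all lay above its WT libraries, on 44 to 51 counts per KO library and 25 to 29 per WT library. Cdh26 had 0.327, 0.297 and 0.203 TPM in the KO libraries, against 0.423, 0.485 and 0.581 TPM in the WT libraries, with the KO libraries below, and rested on no more than 13 counts in a library. By their means over the 6 libraries, Fat2 at 0.586 TPM and Cdh5 at 0.603 TPM lay just inside the filter, and Cdh23 at 0.455 TPM and Cdh26 at 0.386 TPM just outside. As the filter used that mean, Fat2 and Cdh5 passed it through their KO libraries.

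**Figure D2:**
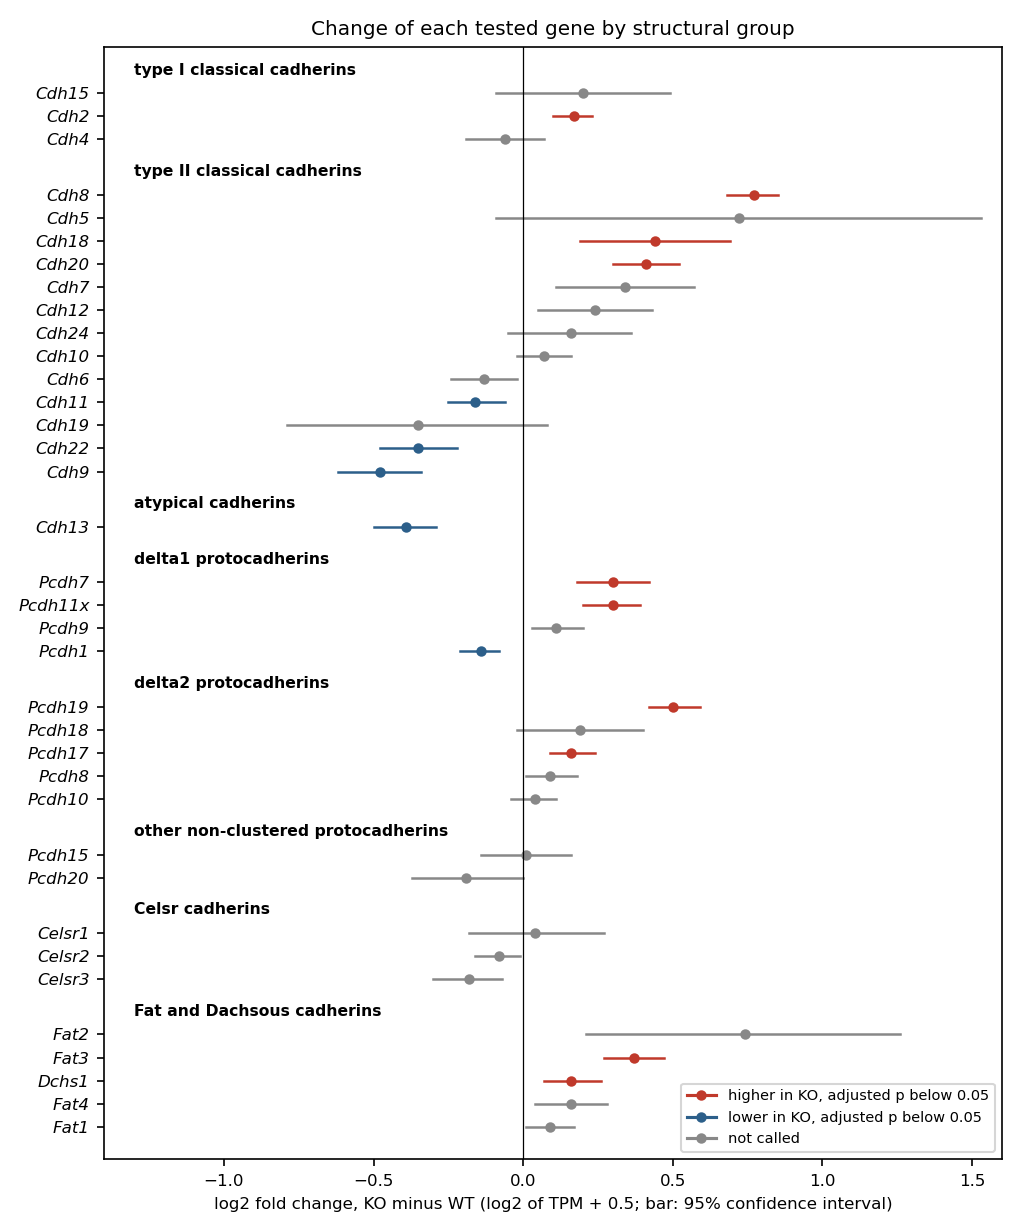
Change of each tested gene between KO and WT by structural group, as the log2 fold change of TPM + 0.5 with its 95% interval (limma, n = 3 each). Points right of the line at 0 were higher in KO: the 10 called rises run from 0.16 to 0.77 and the 5 called falls from -0.14 to -0.48, and type II cadherins hold the widest spread of called genes in both directions.

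Promoter sequence is shown for the 4 called genes that the results turn on most and that have an entry in the RefSeq table: the 2 largest rises and the 2 falls found there. The histone mark that Kdm6b removes is known to gather at promoters rich in the dinucleotide CG, so each CG is in capitals. The letters are those before the gene start on GRCm38, read 5′ to 3′ on the gene's own strand and end before both the RefSeq and the GENCODE start of the gene. For Cdh9 and Cdh22 the stretch was cut to 91 and 134 bases, since bases nearer the RefSeq start lie within the GENCODE gene.
Cdh8, chr8:99416472-99416721, strand minus: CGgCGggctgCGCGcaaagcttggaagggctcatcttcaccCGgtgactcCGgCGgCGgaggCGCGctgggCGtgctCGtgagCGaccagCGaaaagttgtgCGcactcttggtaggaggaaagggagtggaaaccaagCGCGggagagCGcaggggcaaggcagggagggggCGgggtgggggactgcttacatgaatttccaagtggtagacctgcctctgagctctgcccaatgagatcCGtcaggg
Pcdh19, chrX:133688994-133689243, strand minus: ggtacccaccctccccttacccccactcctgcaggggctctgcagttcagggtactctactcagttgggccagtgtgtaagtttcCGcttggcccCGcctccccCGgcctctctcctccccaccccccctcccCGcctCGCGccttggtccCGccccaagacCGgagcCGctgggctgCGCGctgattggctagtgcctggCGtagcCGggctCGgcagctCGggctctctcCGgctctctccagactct
Cdh9, chr15:16728665-16728755, strand plus: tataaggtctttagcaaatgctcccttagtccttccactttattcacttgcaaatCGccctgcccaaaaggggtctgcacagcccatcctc
Cdh22, chr2:165234854-165234987, strand minus: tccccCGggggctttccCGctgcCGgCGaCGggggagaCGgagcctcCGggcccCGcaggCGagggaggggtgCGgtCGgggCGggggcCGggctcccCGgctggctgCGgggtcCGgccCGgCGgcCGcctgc
The stretches shown hold 20 CG for Cdh8, 16 for Pcdh19, 1 for Cdh9 and 19 for Cdh22. In the full 250 bases before the RefSeq start, Cdh9 had 6 and Cdh22 had 30. A rise and a fall thus each occurred with a high CG count. Low counts were not confined to a fall: Pcdh7 and Cdh18, which rose, had 7 and 8 CG in their 250 bases. Only 2 windows belong to genes that fell, so no link of CG count to direction is read from these genes. Of the set, 28 genes matched the table with 31 windows of this size. Their median was 11 CG per window, against 6 over all 32851 windows of the table, and 54.8% of them held at least 10 CG, against 37.8% of all windows. All windows cover 27025 genes, more than the 14983 tested, so the comparison is not matched for expression. Cdh7 and Pcdh9 enter with more than 1 window. CG reads the same on both strands. The counts describe the sequence and say nothing of whether the mark was present. Of the called genes, Cdh13, Cdh2, Pcdh1, Pcdh11x, Cdh11 and Dchs1 had no entry.

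Type I cadherins, the main classical adhesion molecules, were mostly N-cadherin by level. Of 3 tested genes, 1 rose and 2 did not pass. Cdh2 encodes N-cadherin, which holds neural progenitors and synapses together, and had 275, 271 and 269 TPM in KO replicates 1, 2 and 3, against 241, 235 and 250.1 TPM in the WT replicates. The lowest KO library stood above the highest WT library, a rise of 1.12-fold (log2 fold change 0.17 ± 0.03 SE, limma adjusted p = 0.0089). Its call held without any 1 library and was missed only when the variance trend was left out, at a limma adjusted p of 0.054. R-cadherin, encoded by Cdh4, had 63.2, 54.3 and 56.3 TPM in the KO libraries, against 62.3, 59.6 and 59.1 TPM in the WT libraries. KO replicate 1 was the highest of all and KO replicate 2 the lowest, so the groups overlapped (log2 fold change -0.06, 95% interval -0.19 to 0.07, limma adjusted p = 0.56). M-cadherin of muscle, Cdh15, averaged 3.54 ± 0.495 TPM in KO and 3.00 ± 0.203 TPM in WT and did not pass. The summed level of the 5 type I genes was 333 ± 7.15 TPM in KO and 305 ± 7.57 TPM in WT.

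Type II classical cadherins, whose members often mark different sets of neurons, showed changes in both directions: of 13 genes, all tested, 3 rose, 3 fell and 7 did not pass. Their summed level was 276 ± 6.53 TPM in KO and 259.7 ± 3.54 TPM in WT. Cdh8 is a type II cadherin of particular cortical and thalamic neurons and of their synapses, and lies at chr8:99024471-99416471 (GRCm38). It had 44.7, 45.1 and 44.5 TPM in KO replicates 1, 2 and 3, against 25.5, 25.8 and 27.1 TPM in the WT replicates. The KO libraries were nearly equal and far above the WT libraries, and the 1.71-fold rise was the largest among the called genes (log2 fold change 0.77 ± 0.04 SE, limma adjusted p = 6.2e-05). It held in each of the 16 alternative analyses, with a limma adjusted p of at most 0.0026. Cdh20, at chr1:104768529-104995481, had 22.9, 23.7 and 24.5 TPM in the KO libraries, against 17.8, 18.1 and 17.1 TPM in the WT libraries. No library of one genotype reached the range of the other, and the rise was 1.34-fold (log2 fold change 0.41 ± 0.05 SE, limma adjusted p = 0.002). Cdh18, at chr15:22549022-23474418, had 22.7, 16.5 and 18.2 TPM in KO replicates 1, 2 and 3, against 13.3, 13.6 and 14.7 TPM in the WT replicates. Relative to its level its KO libraries were the most scattered of the 15 called genes, with KO replicate 1 well above the others. The 1.38-fold rise (log2 fold change 0.44 ± 0.11 SE, limma adjusted p = 0.04) passed only without KO replicate 2 when 1 library was left out, and otherwise reached adjusted p up to 0.13.

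Cdh9, known from synapse formation between hippocampal mossy fibres and their targets, lies at chr15:16728756-16857094 and fell. It had 15.4, 14.5 and 16.4 TPM in the KO libraries, against 22.5, 22.0 and 20.7 TPM in the WT libraries. The highest KO library was well under the lowest WT library (log2 fold change -0.48 ± 0.06 SE, limma adjusted p = 0.0026). Cdh22, a cadherin first described in pituitary and brain, lies at chr2:165111507-165234853 and had 23.4, 21.7 and 22.5 TPM in KO replicates 1, 2 and 3, against 29.2, 30.5 and 27.0 TPM in the WT replicates. The ranges were apart, with KO at 78.0% of WT (log2 fold change -0.35 ± 0.06 SE, limma adjusted p = 0.0075). Cdh11, also known as the osteoblast cadherin and made by mesenchymal cells as well as neurons, lies at chr8:102632095-102785642 and had 50.7, 47.7 and 49.2 TPM in the KO libraries, against 53.5, 53.9 and 57.3 TPM in the WT libraries. KO stood below WT at 89.7% (log2 fold change -0.16 ± 0.04 SE, limma adjusted p = 0.046), but the call was lost without any 1 library (adjusted p 0.061 to 0.14), after median centring (0.075) and after quantile normalization (0.068).

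Cdh8 and Cdh9 changed in opposite directions, so their ratio differed by more than either gene. Within a library, the ratio of Cdh8 to Cdh9 TPM was 2.90, 3.11 and 2.71 in the KO libraries and 1.13, 1.17 and 1.31 in the WT libraries. The pair was picked after its values were seen, and no test was made of it. Of the type II genes that did not pass, Cdh6 and Cdh10 had over 10 TPM. Cdh6, used by retinal axons to find their targets, had 22.8, 23.0 and 21.0 TPM in the KO libraries, against 24.4, 24.6 and 24.3 TPM in the WT libraries. All KO values lay under the WT values, but the difference did not pass (log2 fold change -0.13, 95% interval -0.24 to -0.02, limma adjusted p = 0.13). Cdh10 had 52.0, 51.8 and 55.3 TPM in the KO libraries, against 48.6, 51.5 and 51.3 TPM in the WT libraries. The lowest KO library, at 51.8 TPM, lay just above the highest WT library, at 51.5 TPM (log2 fold change 0.07, 95% interval -0.02 to 0.16, limma adjusted p = 0.31). Cdh7, Cdh12, Cdh24, Cdh19 and Cdh5 averaged between 0.877 and 9.93 TPM in KO and between 0.328 and 8.32 TPM in WT. Among them Cdh7 came closest to a call, with 7.61, 7.32 and 7.62 TPM in the KO libraries, against 5.06, 6.43 and 6.08 TPM in the WT libraries (log2 fold change 0.34 ± 0.10 SE, limma adjusted p = 0.066), and passed after quantile normalization (adjusted p = 0.039) and in a test on the recovered counts. Cdh5, the cadherin of endothelium, rested on 15 to 41 counts per KO library and 4 to 18 per WT library and had the widest interval, from -0.09 to 1.53 on the log2 scale. Limma voom on the recovered counts also called Cdh12 (adjusted p = 0.0086) and Cdh5 (0.015). Neither was called in any other alternative. The groups of Cdh5 overlapped, and it had passed the filter through its KO libraries.

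Several of these genes share a chromosome, and changes of both signs occurred on the same chromosome, though not always in adjacent genes. Chromosome 15 carries Cdh6, Cdh9, Cdh10, Cdh12 and Cdh18 in that order between 13028701 and 23474418 (GRCm38). Cdh9 fell and Cdh18 rose there, while the log2 fold changes of Cdh6, Cdh10 and Cdh12 were -0.13, 0.07 and 0.24 and did not pass. Chromosome 1 carries Cdh20, Cdh7 and Cdh19, with log2 fold changes of 0.41, 0.34 and -0.35, of which that of Cdh20 passed. On chromosome 8, Cdh8 rose while Cdh11 and Cdh13 fell.

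Among atypical cadherins only Cdh13 was expressed above the filter. It encodes T-cadherin, which is held in the membrane by a lipid anchor and lacks the cytoplasmic tail that binds catenins. The gene lies at chr8:118283733-119324921 and was the most abundant of the set, with 343, 342 and 334 TPM in KO replicates 1, 2 and 3, against 459, 469.9 and 414 TPM in the WT replicates. The WT libraries were spread more widely than the KO libraries, and the groups did not overlap. Cdh13 fell to 75.9% of WT (log2 fold change -0.39 ± 0.05 SE, limma adjusted p = 0.0018), which held in each alternative. In TPM this was the largest difference of any member, 339.7 ± 4.64 in KO against 447 ± 29.8 in WT, and it offset the rises elsewhere in the set's total. The ratio of Cdh13 to Cdh2 TPM, the pair with the highest levels, was 1.25, 1.26 and 1.24 in the KO libraries and 1.90, 2.00 and 1.65 in the WT libraries. This pair too was picked after its values were seen and was not tested.

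**Figure D3:**
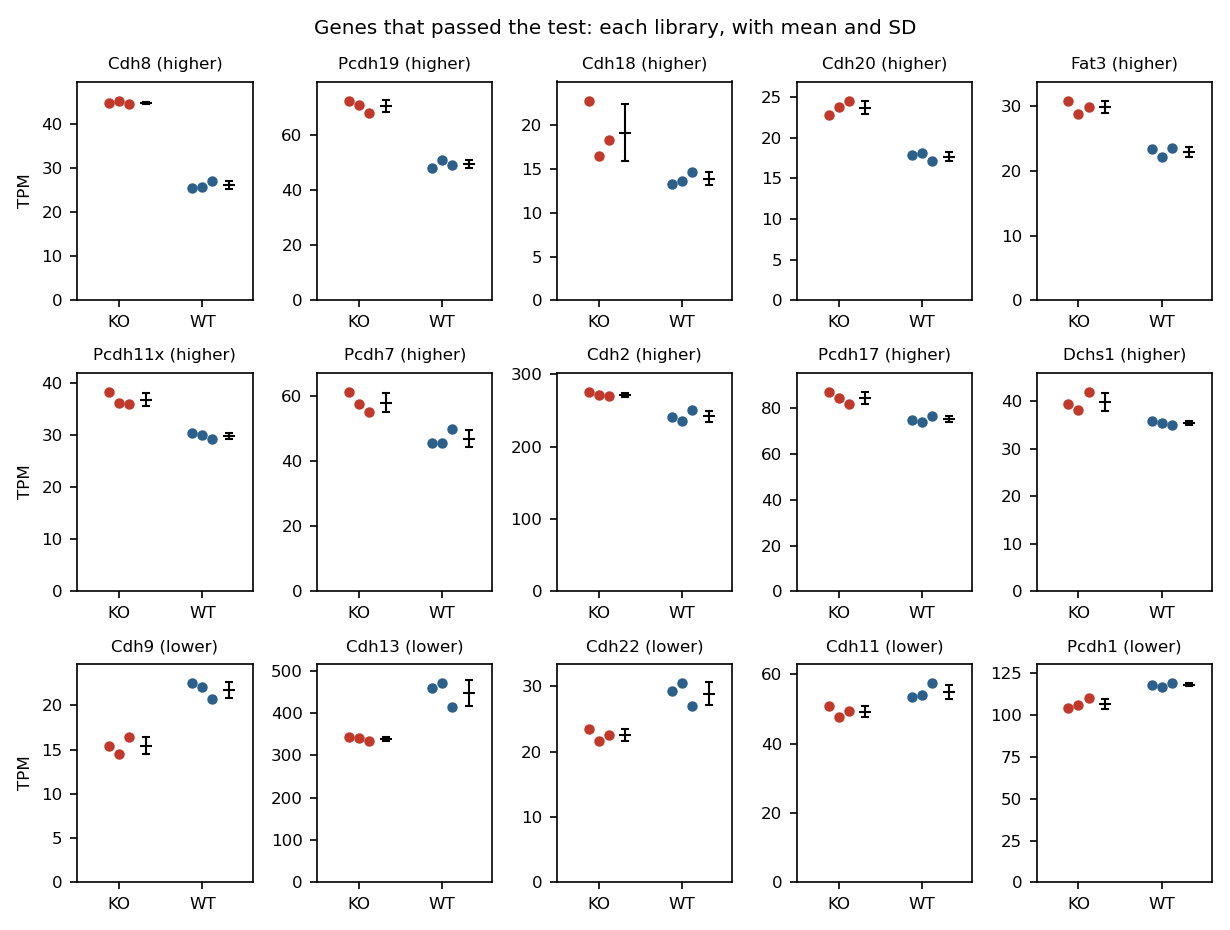
TPM in each library for the 15 genes that passed the test, KO left of WT, with the mean and SD beside the points (n = 3 each) and every axis starting at 0. Rises fill the upper 2 rows and falls the lowest row; relative to level, Cdh8 shows the widest gap between groups and Cdh18 the widest spread among KO libraries.

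The delta1 protocadherins carry a cytoplasmic motif that binds protein phosphatase 1. Of 4 genes, 2 rose, 1 fell and 1 did not pass. Pcdh7, at chr5:57717967-58133230, had 61.0, 57.5 and 55.1 TPM in the KO libraries, against 45.4, 45.4 and 49.7 TPM in the WT libraries. Even the lowest KO library exceeded WT replicate 3, the highest of its group, and the rise was 1.24-fold (log2 fold change 0.30 ± 0.05 SE, limma adjusted p = 0.0094). Pcdh11x, on the X chromosome at chrX:120290259-120910619, had 38.2, 36.3 and 36.0 TPM in KO replicates 1, 2 and 3, against 30.4, 30.1 and 29.2 TPM in the WT replicates. The groups were separate, with a rise of 1.23-fold (log2 fold change 0.30 ± 0.04 SE, limma adjusted p = 0.0033). Pcdh1, the most abundant protocadherin of the set and a gene of chromosome 18, moved the other way, with 104, 106 and 110.2 TPM in the KO libraries, against 118, 117 and 119 TPM in the WT libraries. The WT libraries were tightly grouped above the KO libraries, which reached 90.5% of WT (log2 fold change -0.14 ± 0.03 SE, limma adjusted p = 0.018). This call was lost without KO replicate 1, KO replicate 2, WT replicate 1 or WT replicate 3, at adjusted p up to 0.067. Pcdh9, a delta1 member enriched in brain, had 86.6, 85.6 and 80.2 TPM in KO replicates 1, 2 and 3, against 76.1, 78.8 and 77.9 TPM in the WT replicates. KO was above WT in every library but the change did not pass (log2 fold change 0.11, 95% interval 0.03 to 0.20, limma adjusted p = 0.083), and it passed without KO replicate 3 (adjusted p = 0.043), after median centring (0.043) and on the recovered counts (0.0049).

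The delta2 protocadherins recruit the WAVE complex, which builds branched actin. Of 5 genes, 2 rose and 3 did not pass, and the log2 fold changes of all 5 were above 0. Pcdh19, the gene of an X-linked human epilepsy and a partner of N-cadherin, lies at chrX:133582860-133688987 and had 72.1, 71.0 and 67.9 TPM in KO replicates 1, 2 and 3, against 48.1, 51.0 and 49.2 TPM in the WT replicates. The KO libraries were all well above the WT libraries, and the 1.42-fold rise had the second smallest p of the set (log2 fold change 0.50 ± 0.04 SE, limma adjusted p = 0.0003). It held in all 16 alternatives. Pcdh17, known from presynaptic sites of corticostriatal pathways, lies at chr14:84443563-84539002 and had 86.8, 84.3 and 81.6 TPM in the KO libraries, against 74.8, 74.0 and 76.7 TPM in the WT libraries. A rise of 1.12-fold separated the groups (log2 fold change 0.16 ± 0.03 SE, limma adjusted p = 0.018). Without KO replicate 1, KO replicate 2, WT replicate 1 or WT replicate 2 it missed the threshold, at adjusted p up to 0.067. Pcdh8, whose product is induced by activity and can take N-cadherin off the surface, had 72.6, 71.6 and 74.8 TPM in the KO libraries, against 67.9, 71.1 and 66.2 TPM in the WT libraries. This left a narrow gap between groups (log2 fold change 0.09, 95% interval 0.01 to 0.18, limma adjusted p = 0.14), and limma voom on the recovered counts called it (adjusted p = 0.044). Pcdh10, linked to synapse elimination, had 83.3, 78.6 and 82.1 TPM in KO replicates 1, 2 and 3, against 79.6, 78.0 and 80.1 TPM in the WT replicates. Those ranges overlapped (log2 fold change 0.04, 95% interval -0.04 to 0.11, limma adjusted p = 0.52). Pcdh18 averaged 6.96 ± 0.434 TPM in KO and 6.04 ± 0.519 TPM in WT and did not pass. Together the 5 delta2 genes summed to 316 ± 4.84 TPM in KO and 278 ± 2.13 TPM in WT, and the 4 delta1 genes to 286 ± 4.29 TPM in KO and 272 ± 3.02 TPM in WT.

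Pcdh19 and Pcdh11x lie on the X chromosome. Of 499 X-linked genes tested, 25 rose and 34 fell, with a median log2 fold change of -0.01. Pcdh19's change was reached or passed by 10 X-linked genes, itself included, and that of Pcdh11x by 29. The part that the sex mix has in these rises cannot be told apart from the genotype.

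Of the remaining non-clustered protocadherins, neither tested gene passed in limma or in the test on recovered counts, and 0 had an unadjusted p below 0.05. Pcdh15, the tip-link partner of Cdh23, had 13.8, 13.5 and 13.1 TPM in the KO libraries, against 12.9, 12.7 and 14.5 TPM in the WT libraries. WT replicate 3 was the highest of the 6 and the groups overlapped (log2 fold change 0.01, 95% interval -0.14 to 0.16, limma adjusted p = 0.95). Pcdh20 averaged 8.02 ± 0.489 TPM in KO and 9.21 ± 0.668 TPM in WT (log2 fold change -0.19 ± 0.08 SE, limma adjusted p = 0.19).

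The Celsr cadherins join cadherin repeats to a receptor that crosses the membrane many times and are core components of planar cell polarity. None of the 3 passed in the limma test of log2 TPM, while 2 had an unadjusted p below 0.05. The share of all tested genes at that unadjusted threshold was not counted. The test on the recovered counts called Celsr3. Celsr3, needed for major axon tracts of the forebrain, had 22.6, 24.1 and 25.6 TPM in KO replicates 1, 2 and 3, against 27.4, 27.6 and 27.2 TPM in the WT replicates. Its KO libraries were scattered below a tight WT group (log2 fold change -0.18, 95% interval -0.30 to -0.07, limma adjusted p = 0.06), and it passed without KO replicate 3 (adjusted p = 0.043). Celsr2, which is known to support dendrite growth and was the fourth most abundant member in each group, had 101, 99.8 and 105 TPM in the KO libraries, against 111, 108 and 106 TPM in the WT libraries. The highest KO value lay close under the lowest WT value (log2 fold change -0.08, 95% interval -0.16 to -0.01, limma adjusted p = 0.13). Celsr1 averaged 5.73 ± 0.457 TPM in KO and 5.55 ± 0.444 TPM in WT, with an interval from -0.18 to 0.27 on the log2 scale. The summed Celsr level was 132 ± 3.58 TPM in KO and 141 ± 2.08 TPM in WT.

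The Fat and Dachsous cadherins bind each other across cell contacts, with Dchs1 and Fat4 as a ligand and receptor pair. Of the 5 genes, 2 rose and 3 did not pass. The KO libraries lay above the WT libraries in all 5, where 31.7% of all tested genes had groups that did not overlap in either direction, and Fat2 had passed the filter through its KO libraries. Fat3, which directs the dendrites of retinal neurons, lies at chr9:15910189-16501285 and had 30.7, 28.8 and 29.9 TPM in the KO libraries, against 23.3, 22.0 and 23.4 TPM in the WT libraries. The gap between groups was wide relative to their spread, and the rise was 1.30-fold (log2 fold change 0.37 ± 0.05 SE, limma adjusted p = 0.0023). Dchs1, at chr7:105752990-105787654, had 39.4, 38.2 and 41.9 TPM in KO replicates 1, 2 and 3, against 35.9, 35.5 and 35.1 TPM in the WT replicates. Its KO libraries were all higher and more scattered, with a rise of 1.12-fold (log2 fold change 0.16 ± 0.04 SE, limma adjusted p = 0.045) that missed the threshold without any 1 library, at adjusted p of 0.054 to 0.11. Fat4, the partner of Dchs1 in cortical progenitors, had 30.3, 30.3 and 33.8 TPM in the KO libraries, against 28.1, 28.0 and 28.2 TPM in the WT libraries. KO replicate 3 was the highest, and the other KO libraries stood just above WT (log2 fold change 0.16, 95% interval 0.04 to 0.28, limma adjusted p = 0.089). On the recovered counts Fat4 was called (limma voom adjusted p = 0.00071). Fat1, a regulator of actin and of cell polarity, had 51.8, 50.1 and 51.1 TPM in KO replicates 1, 2 and 3, against 48.3, 46.3 and 49.3 TPM in the WT replicates (log2 fold change 0.09, 95% interval 0.01 to 0.17, limma adjusted p = 0.16). The lowest KO library exceeded the highest WT library by less than the range of either group. Fat1 too was called on the recovered counts (limma voom adjusted p = 0.013). Fat2, known from cerebellar granule cells, had 0.899, 0.754 and 0.912 TPM in the KO libraries, against 0.360, 0.211 and 0.379 TPM in the WT libraries, on 86 to 93 counts per KO library and 21 to 41 per WT library. The log2 scale with an added 0.5 TPM holds down the change of so low a gene (log2 fold change 0.74, 95% interval 0.21 to 1.26, limma adjusted p = 0.08). Fat2 was called with no filter (adjusted p = 0.023), without the variance trend (0.018), after quantile normalization (0.041) and on the recovered counts. It was not called with any 1 library left out (limma adjusted p 0.11 to 0.18) or with the replicate block (0.14). Its log2 fold change was 1.22 with a pseudocount of 0.1 TPM, 0.50 with 1 TPM and 1.45 on the recovered counts. The 5 genes summed to 153 ± 4.72 TPM in KO and 135 ± 2.43 TPM in WT.

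**Figure D4:**
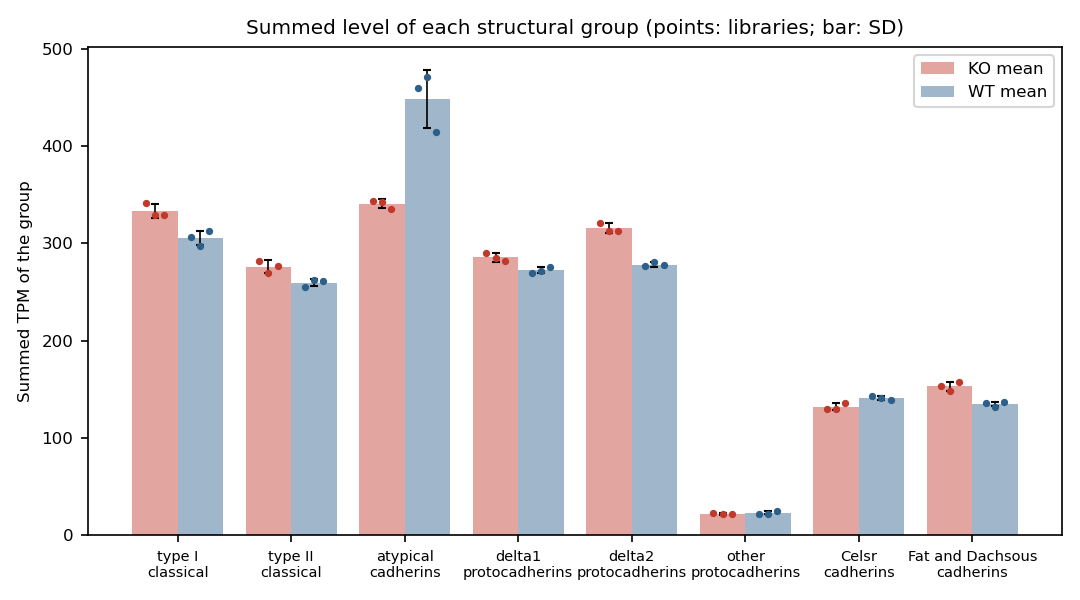
Summed TPM of each structural group in KO (left bar) and WT (right bar), with bars for means, points for libraries and error bars for SD (n = 3 each); the vertical axis starts at 0. The atypical group, nearly all Cdh13, was lower in KO (341 TPM against 448 TPM in WT), and the type I, type II, delta1, delta2 and Fat and Dachsous sums were higher in KO.

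Genes known to act with cadherins were followed in separate lists, beside a share of 10.9% called over all tested genes. The catenins and their adaptors link classical cadherins to actin. Of 13 tested, 2 rose and 1 fell, with a median log2 fold change of -0.02. Jup, which encodes plakoglobin, averaged 46.7 ± 1.69 TPM in KO and 40.9 ± 0.982 TPM in WT (log2 fold change 0.19 ± 0.04 SE, limma adjusted p = 0.02). Ptprf, a receptor phosphatase that binds the complex, averaged 143 ± 1.11 TPM in KO and 133 ± 3.35 TPM in WT (log2 fold change 0.10 ± 0.03 SE, limma adjusted p = 0.047). Mllt4, listed under its synonym Afdn and encoding afadin, averaged 71.5 ± 0.342 TPM in KO and 76.9 ± 1.16 TPM in WT (log2 fold change -0.10 ± 0.03 SE, limma adjusted p = 0.045). Mllt4 and Ptprf lost their calls without any 1 library, at adjusted p up to 0.14 and 0.13, and Jup without KO replicate 3, WT replicate 2 or WT replicate 3, at up to 0.067. The count of 3 thus fell to 0 or 1 in each of those 6 analyses.

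None of 8 genes for proteases that cut cadherins passed in limma. At an unadjusted p below 0.05 there was 1, and the test on recovered counts called 2. The smallest p was that of Furin, which processes the cadherin precursor, with 26.3 ± 0.367 TPM in KO and 29.1 ± 0.918 TPM in WT (log2 fold change -0.14 ± 0.04 SE, limma adjusted p = 0.063). Of 10 genes for the WAVE complex and the kinase that acts with delta2 protocadherins, 1 fell and none rose. That gene, Wasf1, encodes a WAVE subunit of neurons and averaged 313 ± 3.66 TPM in KO and 343 ± 1.06 TPM in WT (log2 fold change -0.13 ± 0.02 SE, limma adjusted p = 0.0064), while the median over the list was -0.07. The count was 2 without KO replicate 1, and 0 without the variance trend. Of 12 planar polarity partners of the Celsr cadherins, 1 fell and none rose. With 1 gene each at the adjusted threshold, the WAVE and planar polarity lists were near the share called over all genes. At an unadjusted p below 0.05 there were 5 WAVE genes, 1 planar polarity gene and 6 catenin and adaptor genes. The WAVE list summed to 1720 to 1770 TPM in KO, against 1817 to 1848 TPM in WT. The planar polarity list summed to 429 to 447 TPM in KO, against 461 to 472 TPM in WT. In the other partner lists the sums of KO and WT overlapped. Prickle2, a cytoplasmic polarity protein, averaged 80.6 ± 0.807 TPM in KO and 94.1 ± 1.39 TPM in WT (log2 fold change -0.22 ± 0.03 SE, limma adjusted p = 0.002) and was called in every alternative. In the pathway of Fat and Dachsous, which leads through the Hippo kinases to Yap1, none of 14 tested genes passed in limma or in the test on recovered counts. At an unadjusted p below 0.05 there were 4. The smallest p was that of Mpp5, listed under its synonym Pals1, with 15.8 ± 0.690 TPM in KO and 18.2 ± 1.30 TPM in WT (log2 fold change -0.20 ± 0.07 SE, limma adjusted p = 0.094). The share of all tested genes at that unadjusted threshold was not counted, so nothing is read from the counts of any list at it.

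Cultures of this kind hold several cell types, and markers of these types were read beside the cadherin genes. Over all tested genes, 4.15% were called higher and 6.74% lower. In bulk RNA, fewer cells of a type and less RNA per cell cannot be told apart. GABAergic interneuron markers summed to 882 to 954 TPM in KO, against 1171 to 1209 TPM in WT, with 6 of 8 lower and 1 higher. Cortical excitatory markers summed to 719 to 759.5 TPM in KO, against 951 to 974 TPM in WT, with 3 of 8 lower and 1 higher. The list's median log2 fold change was -0.07, and most of the gap in the sum was Slc17a7, with 269 ± 15.6 TPM in KO and 479.8 ± 7.62 TPM in WT. Pan-neuronal markers summed to 6777 to 6862 TPM in KO, against 6469 to 6502 TPM in WT, with 2 of 8 higher and 1 lower. Neuronal transcripts were thus abundant in both groups, and so were the glial transcripts given next. Astrocyte and radial glia markers summed to 4840.0 to 5009.9 TPM in KO, against 4280.2 to 4439 TPM in WT, with 3 of 8 higher and 1 lower. Fabp7, with 2743 ± 76.7 TPM in KO and 2508 ± 89.5 TPM in WT, and Aldoc, with 965 ± 16.7 TPM in KO and 694 ± 16.5 TPM in WT, made up most of that gap, while Gfap, Aqp4, Aldh1l1 and Gja1 had every KO library below WT and the list's median log2 fold change was -0.00. Markers of meningeal fibroblasts, a mesenchymal cell type, summed to 52.7 to 69.0 TPM in KO, against 43.7 to 51.3 TPM in WT, with 3 of 8 higher and none lower. Of the fibroblast genes, Lum averaged 3.45 ± 0.475 TPM in KO and 0.941 ± 0.0389 TPM in WT and Col1a1 5.31 ± 1.08 TPM in KO and 2.49 ± 0.559 TPM in WT, while Ogn averaged 6.41 ± 1.83 TPM in KO and 9.26 ± 3.39 TPM in WT.

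Markers of other types were measured as well, beside the share of 10.9% called over all tested genes. With so few tested genes per list, counts of 1 or 2 cannot be set apart from that share. Oligodendrocyte lineage markers summed to 653 to 679.9 TPM in KO, against 651 to 689 TPM in WT, with 2 of 7 tested lower. Endothelial and pericyte markers summed to 15.9 to 17.1 TPM in KO, against 18.1 to 19.6 TPM in WT, with 1 of 4 tested lower. That gene was Kdr, with 5.62 ± 0.576 TPM in KO and 9.21 ± 0.828 TPM in WT, a wider difference than that of the sums. Of the other tested markers, Pdgfrb and Rgs5 averaged higher in KO and Pecam1 lower, and the list's median log2 fold change was 0.05. Cldn5 had at most 3 counts in a library. Microglial markers summed to 2.11 to 4.17 TPM in KO, against 2.06 to 2.32 TPM in WT, and Cx3cr1 and P2ry12 had at most 5 counts in a library. Choroid plexus and ependymal markers summed to 38.7 to 52.1 TPM in KO, against 40.0 to 58.1 TPM in WT, with 0 of 4 tested called in limma, and 0 at an unadjusted p below 0.05. The part that these markers and cell types have in the changes of the cadherin genes was not tested.

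Reads of genes that overlap on opposite strands cannot be told apart here, since the strand setting of the counting is not given. In the GENCODE M21 annotation 5 of the 15 called genes share exon bases with a gene on the other strand. These are Cdh8 with Gm15679, Cdh9 with Gm49127, Pcdh7 with 4932441J04Rik, Pcdh19 with Gm26851 and Dchs1 with Gm15645.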

How the data were processed

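Gene expression was measured in 3 KDM6B KO and 3 WT libraries. The authors deposited TPM, 1 column per library: each sums to 1000000, although the table is called FPKM. Build mm10 and the tools bcl2fastq 2.17, FastQC 0.11.2, TopHat, Picard 1.127, edgeR and featureCounts are named, per the submitters' processing notes, without roles. Annotation, strand setting and scaling are not given in the sources used. Because TPM are shares of a total, a rise of abundant genes lowers all others.

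The 14983 genes that averaged 0.5 TPM or more were tested by limma 3.58.1 in R 4.3.3, on log2 of TPM plus 0.5, with a variance trend, no covariate and Benjamini-Hochberg adjustment over all of them. Fold changes on this scale understate those of low genes, and folds in the text are ratios of mean TPM. Dividing TPM by its common step gave whole counts for 100.0% of the 19369 entries above 0, within 2e-05 counts plus 1e-07 of the value. For 220 entries the annotated gene length chose among possible multiples. These counts gave the depth (1 count in a gene of 1 kb is worth 0.126 to 0.151 TPM) and 1 alternative test, limma voom. Other alternatives covered the pseudocount, filter, scaling, variance model, replicate block and each library left out. The fit was checked on simulated data. GENCODE M21 (GRCm38, identical to mm10) gave positions, and RefSeq on GRCm38 gave the promoters, 250 bases upstream.

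Members, partner lists and marker lists were chosen with earlier results of these data known. Every member with a call or a mean of at least 10 TPM is given by library, and the others by range. In partner lists, members that passed are named, or the gene with the smallest p where none did.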

Additional observations from a re-analysis of the deposited data

How the results depend on the processing

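The count of 10 rises stayed between 7 and 12 except with limma voom on the recovered counts, which gave 18. That test called 24 members, 9 of them not among the 15, and 17.5% of all genes. The 9 were Cdh5, Cdh7, Cdh12, Pcdh8, Pcdh9, Celsr3, Fat1, Fat2 and Fat4. The count of 5 falls became 3 without the variance trend and 3 with the replicate block, and 3 to 5 when 1 library was left out. Catenin and adaptor calls, 3 as reported, were 0 without the variance trend, 0 with the replicate block, 6 with voom and 0 to 1 with 1 library left out. WAVE calls, 1 as reported, were 2 with a filter of 2 TPM, 2 with quantile normalization, 2 with the robust variance trend, 0 without the trend, 3 with voom and 1 to 2 with 1 library left out. Protease calls, 0 as reported, were 2 with voom. Why these counts moved was not tested. Kdm6b stayed lower in all alternatives, at -1.35 to -1.42.

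Of the 15 called members, 9 were called in all 16 alternatives and 10 with any 1 library left out. Over the genes named, 597 of 685 alternative values kept their direction and side of the threshold, 67 lost a call, 17 gained one and 4 reversed. These were Pcdh15, whose log2 fold change ran from -0.02 to 0.06 when 1 library was left out, and Celsr1, from -0.01 to 0.10.

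The labels do not say whether replicate numbers pair the libraries. Deviations of same-numbered KO and WT libraries correlated at 0.01, -0.05 and 0.01, and those of differently numbered ones at -0.04 to 0.03. These values show no sign of pairing, but with 3 libraries per group they cannot exclude it. With the number as a block, 7 rises and 3 falls were called. Depth limits the 7 untested members, and Fat2, Cdh5, Cdh15 and Cdh19, which rest on under 100 counts a library.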
